A study of Apis mellifera with 2 samples.

Results

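Kenyon cells are the intrinsic neurons of the mushroom bodies, paired centres of the insect brain that receive olfactory and, in bees, visual input and are known for their part in learning and memory. Dopamine, serotonin, tyramine and octopamine reach them from other neurons and act through G protein-coupled receptors, which raise or lower cyclic AMP or release calcium. Phospholipase C cleaves a membrane lipid into messengers that release calcium and activate protein kinase C, and PLCe, the gene of an epsilon-type phospholipase C, is used as a Kenyon cell marker in the honeybee brain.

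The nuclei described here are 2000 of the 40000 barcodes in a single-nucleus RNA-seq data set of forager brains (Apis mellifera carnica). They were chosen from measured values. Barcodes with 200 to 5000 detected genes and at least 1 UMI of nSyb (neuronal synaptobrevin, a protein of synaptic vesicles; LOC408465, chromosome 14, 8280795 to 8318641) were ranked in each library by the share of their UMIs that came from PLCe (LOC408804, chromosome 4, 8940540 to 9048511), LOC409633 (chromosome 8, 4202401 to 4206565) and LOC411614 (chromosome 11, 8215163 to 8250791). A UMI, or unique molecular identifier, marks a captured RNA molecule. The first 1000 barcodes of each library were taken and are called PLCe-high nuclei. They made up 9.05% of the 11048 nSyb nuclei of the first library and 5.05% of the 19812 of the second.

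The first library came from pollen foragers of colonies treated with BRC, that is bromocriptine, which activates dopamine receptors of the D2-like kind, in ddH2O, and the second from foragers of colonies given ddH2O alone. The sample titles describe the drug as fed and the protocol describes a spray on the bees. Brains were pooled into 1 library per condition, with 15 foragers per group by the series text and a larger number by the study's methods, and trachea, ocelli and compound eyes were removed beforehand. With 1 library per condition there was no test between conditions. Every interval below is a 95% counting interval that leaves out variation between bees, preparations and libraries, and a drug effect cannot be told apart from a difference between libraries.

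Nuclei of each library were set against a pair of comparison groups. The other nSyb nuclei are the 10048 (BRC) and 18812 (ddH2O) barcodes that met the same limits and ranked lower. The glia-marker nuclei are the 1000 barcodes with the largest share of UMIs from 12 glial markers, with no requirement of nSyb. They give the level that neuronal genes reach in nuclei chosen for glial genes, which may express some of those genes themselves. The groups overlap, since glia-marker nuclei with an nSyb UMI were kept in the nSyb groups. In ddH2O 99.1% of barcodes had nSyb, and 4 glia-marker nuclei were also PLCe-high, against 0 in BRC. Levels are counts per 1e+06 UMIs (CPM), with the UMIs of all nuclei of a group summed. Coordinates are those of RefSeq on Amel_HAv3.1. Gene symbols follow RefSeq or the marker list of the study, and genes with only a LOC identifier are given no role.

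The libraries were not alike. Both listed 20000 barcodes. BRC had 76531513 UMIs, ddH2O had 77047419, and 120 barcode sequences occurred in both, among them those of 6 BRC and 4 ddH2O PLCe-high nuclei. A UMI of nSyb was found in 55.4% of BRC barcodes within the gene limits and in 99.1% of those of ddH2O. Neuronal genes were correspondingly frequent in the ddH2O glia-marker nuclei, where nSyb stood at 1502 CPM against 232 CPM in BRC. The BRC library in turn held gland and opsin UMIs in all 3 groups. The PLCe-high nuclei of BRC held 1760 UMIs and 930 genes at the median, those of ddH2O 3054.5 UMIs and 1504 genes. Median depth was 2340.5 and 3348 UMIs in the other nSyb nuclei and 1733.5 and 3145.5 in the glia-marker nuclei.

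The ranking genes set the boundaries of the group, and their values are description only. PLCe supplied 97.7% of the ranking UMIs of the PLCe-high nuclei in BRC and 97.1% in ddH2O. A PLCe-high nucleus held a median of 57 PLCe UMIs in BRC (30 to 266) and 61 in ddH2O (33 to 676), against medians of 1 and 14 in the other nSyb nuclei. In CPM, PLCe stood at 33197 in BRC and 19774 in ddH2O. LOC409633 had a UMI in 45.3% and 63.3% of the PLCe-high nuclei and LOC411614 in 39.8% and 41.9%.

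The share of the 3 genes ran from 6.21% down to 2.6435% of a nucleus's UMIs in BRC, where the next nucleus had 2.64335%, and from 3.78% down to 1.67494% in ddH2O, where the next had 1.67464%. The boundary therefore lay at different shares in the libraries and in neither at a gap. Within 10% of it lay 243 PLCe-high and 263 other nuclei in BRC, and 350 and 454 in ddH2O. A share of at least 0.5% was found in 3122 nSyb nuclei of BRC (28.3%) and in 9074 of ddH2O (45.8%), so the PLCe-high nuclei are the upper end of a longer range and not all nuclei that express PLCe.

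**Figure D1:**
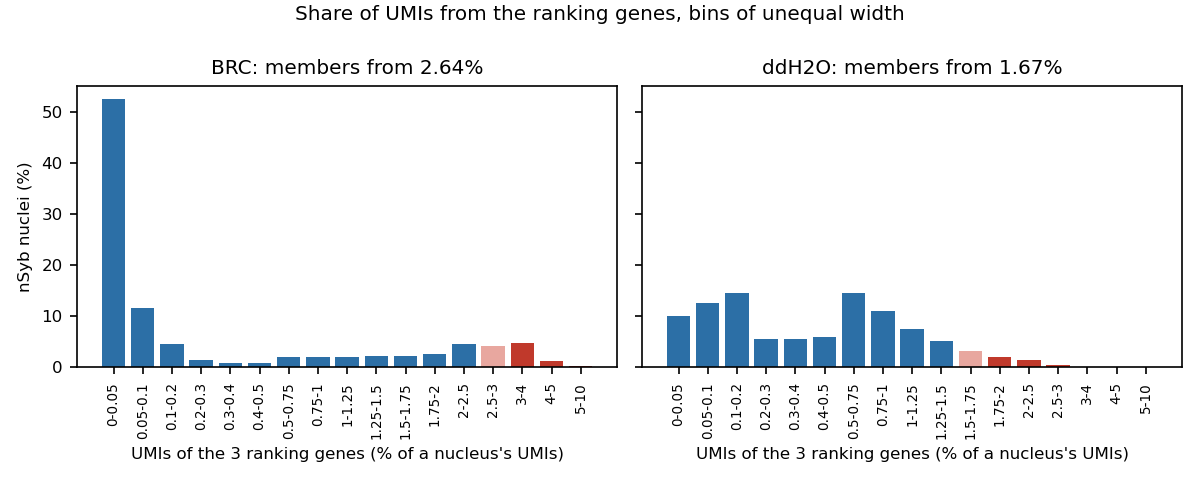
Share of nSyb nuclei (y axis, %) by the percentage of a nucleus's UMIs that came from the 3 ranking genes (x axis, bins of unequal width), in BRC (left) and ddH2O (right). The PLCe-high nuclei start at 2.64% in BRC and 1.67% in ddH2O, and neither histogram has a gap there.

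The label was checked with the 3 Kenyon cell markers that the ranking had not used, mub (named after its mushroom body expression in Drosophila, an RNA-binding protein), trio and PKA-c1 (a catalytic subunit of protein kinase A). Summed, they reached 12366 CPM in the PLCe-high nuclei, 3606 in the other nSyb nuclei and 3025 in the glia-marker nuclei of BRC. In ddH2O the sums were 6907, 3978 and 3908 CPM. PLCe-high nuclei thus exceeded other nSyb nuclei by a log2 ratio of 1.78 (1.76 to 1.80) in the BRC library and of 0.80 (0.78 to 0.82) in the ddH2O library.

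Each of the 3 markers was higher in the PLCe-high nuclei of each library, by unequal amounts. mub (LOC408372, chromosome 12, 1709289 to 2029038) was at 10030 against 2537 CPM in BRC and 4736 against 2625 CPM in ddH2O, with log2 ratios of 1.98 and 0.85. trio was at 680 against 401 CPM and 605 against 393 CPM (log2 0.76 and 0.62). PKA-c1 was at 1657 against 668 CPM and 1566 against 960 CPM (log2 1.31 and 0.71). None was at least 2-fold higher in both libraries. The neuron markers nSyb, Syt1 and fne summed had log2 ratios of 1.30 in BRC and 0.35 in ddH2O. In the summed UMIs of BRC, trio thus rose less than these neuron markers, PKA-c1 about as much, and only mub clearly more. Such sums give deep nuclei more weight, and this order of the markers is given for sums only. Per 1000000 UMIs, the median PLCe-high nucleus of BRC had 4746 of the neuron markers, against 2501 in the other nSyb nuclei. In ddH2O each of the 3 Kenyon markers rose more than the neuron markers. The study describes expression of PKA-c1 as broad across clusters. The name Kenyon-like rests on PLCe, which chose the nuclei, and on these 3 Kenyon markers. When nuclei were ranked by LOC409633 and LOC411614 without PLCe, the log2 ratio of the summed markers was 1.46 in BRC and 0.46 in ddH2O. Among the other nSyb nuclei, 676 in BRC and 118 in ddH2O did not pass the complexity filter of the study (log10 genes per log10 UMIs over 0.85), and the BRC ratio was 1.46 with its filters applied.

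Markers of other cells were mostly lower. Of the 12 glial markers, 7 were abundant enough to be compared, and none was at 0. At least 2-fold lower in both libraries were 4 of the 7, beside 5.06% of the 2571 genes compared below. repo, the glial homeobox factor, was at 33.3 CPM in the PLCe-high, 189 in the other nSyb and 2847 in the glia-marker nuclei of BRC, and at 161, 399 and 1220 CPM in ddH2O. The whole glial list summed to 847, 2458 and 24885 CPM in BRC and to 1715, 3090 and 13509 CPM in ddH2O. The olfactory projection neuron markers acj6 and oaz had 0 and 7 UMIs in the BRC PLCe-high nuclei and 26 and 18 in those of ddH2O. The 9 optic lobe markers summed to 385 against 4150 CPM in BRC and 554 against 1121 CPM in ddH2O. In BRC, hth alone made up 3577 of the 4150 CPM. The median other nSyb nucleus had 1037 UMIs of the list per 1000000 in BRC and 715 in ddH2O, and the median PLCe-high nucleus 0 and 386.

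The optic lobe markers did not all go one way. hth (homothorax, a homeobox factor; LOC552079) was at 162 against 3577 CPM in BRC and 87.1 against 407 CPM in ddH2O, log2 ratios of -4.47 (-4.63 to -4.31) and -2.22 (-2.39 to -2.06). The BRC level of the other nSyb nuclei rested largely on ranks 6501 to 7500, whose nuclei gave 44224 and 63443 of the 147157 hth UMIs, at 6239 CPM in the first 500 of these ranks and 7228 CPM in the rest. At ranks 5001 to 5500 hth was at 1512 CPM and at ranks 10001 to 10500 at 1284 CPM. The log2 ratio in BRC was -3.40 when nuclei were thinned before summing and -2.83 in nuclei of 1500 to 4000 UMIs. An hth UMI was found in 13% of the PLCe-high and 45.9% of the other nSyb nuclei of BRC at 1000 UMIs each, and in 6.9% and 21.4% of those of ddH2O. svp (seven-up, an orphan nuclear receptor) was lower too, at log2 -3.31 and -1.89. vsx1, a visual system homeobox gene, went the other way, at 114 against 20.4 CPM in BRC and 186 against 85.9 CPM in ddH2O (log2 2.48 and 1.12). A vsx1 UMI was found in 10% and 16.7% of the PLCe-high nuclei at 1000 UMIs each, against 0.9% and 6.2% of the glia-marker nuclei, so a minority of the nuclei gave a UMI of it.

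Of 2571 genes with a mean of at least 50 CPM in the compared groups of each library, ranking genes left out, 53 (2.06%) were at least 2-fold higher and 130 (5.06%) at least 2-fold lower in the PLCe-high than in the other nSyb nuclei of both libraries. In BRC alone 325 (12.6%) were higher and 354 (13.8%) lower, and in ddH2O 59 (2.29%) and 150 (5.83%). Summed levels of the BRC other nSyb nuclei give more weight to the deep nuclei at ranks 6501 to 7500, whose part in the BRC counts was not tested. The median log2 ratio over the 2571 genes was -0.09 in BRC and 0.02 in ddH2O. Ranked without PLCe, the counts in both libraries were 15 higher and 25 lower, and against other nSyb nuclei below their median rank 102 were higher. Of the 53, 6 carry a RefSeq symbol, beside 112 of the 2571 compared genes. The 6 are 4 receptors for dopamine and serotonin (Dop1, DopR2, Dop3 and 5-HT1), the neuropeptide gene Tk and the calcium channel gene Cac. vsx1 was also among the 53, under its LOC identifier. Which of the 53 to name beyond the rule for named genes was decided after their values were seen.

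**Figure D2:**
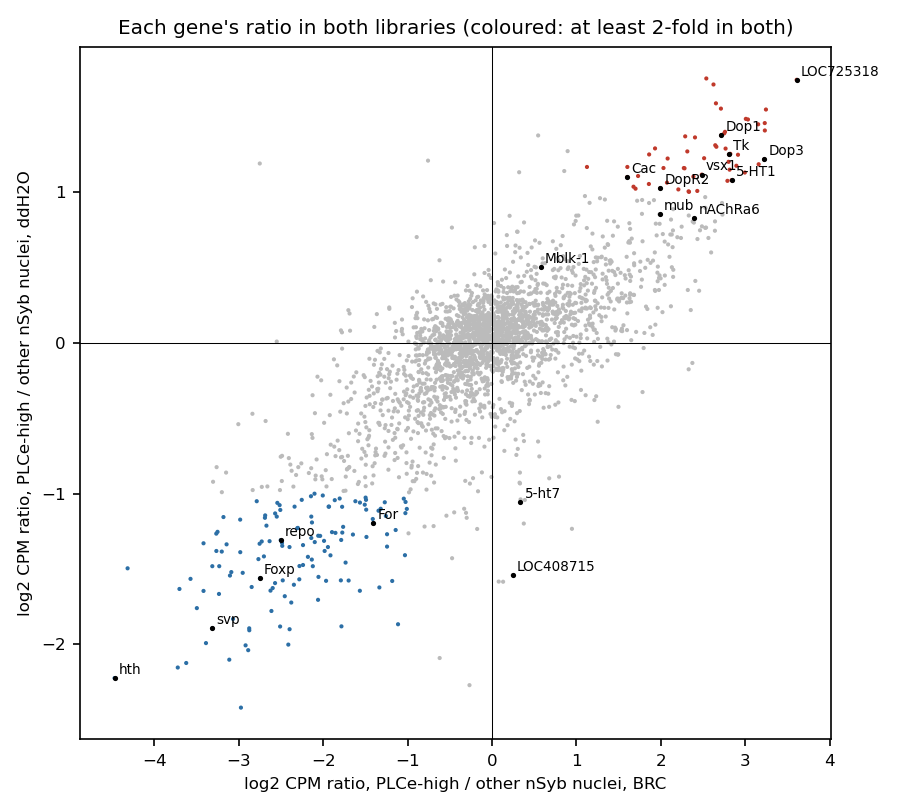
Log2 CPM ratio of PLCe-high to other nSyb nuclei in BRC (x axis) and ddH2O (y axis), a point per compared gene, with the 53 genes at least 2-fold higher in both libraries in red and the 130 at least 2-fold lower in blue. Dop3 lies at 3.22 and 1.22, hth at -4.47 and -2.22, and the spread is wider along the BRC axis.

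Receptors for monoamines made up 4 of the 53 higher genes. Of 9 found, 6 were abundant enough to be compared, and the 4 were Dop1, DopR2, Dop3 and 5-HT1, beside the 2.06% of all compared genes. The list summed to 5874 CPM in the PLCe-high, 1065 in the other nSyb and 774 in the glia-marker nuclei of BRC and to 4264, 2423 and 1487 CPM in ddH2O. The median log2 ratio over the compared receptors was 2.57 and 1.05. In ddH2O none of the 4 stayed 2-fold higher when nuclei were ranked without PLCe, with log2 ratios of 0.78 for Dop3, 0.74 for Dop1, 0.64 for DopR2 and 0.94 for 5-HT1.

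Dop3, the D2-like dopamine receptor of the bee, which lowers cyclic AMP (chromosome 9, 10181294 to 10324139), was at 2000.2 CPM in the PLCe-high, 214 in the other nSyb and 186 in the glia-marker nuclei of BRC. In ddH2O it was at 1102, 474 and 272 CPM. Log2 ratios of PLCe-high to other nSyb nuclei were 3.22 (3.17 to 3.28) for BRC and 1.22 (1.17 to 1.27) for ddH2O. Summed levels give deep nuclei more weight, and the nuclei at BRC ranks 6501 to 7500 were deeper than those around them. Dop3 was at 80.8 CPM at ranks 6501 to 7000 and 32.2 CPM at ranks 7001 to 7500. It was at 165 CPM at ranks 6001 to 6500 and 115 CPM at ranks 7501 to 8000. The BRC ratio kept its direction when nuclei were thinned before summing and in nuclei of 1500 to 4000 UMIs. It was not computed with these deep nuclei alone left out. After each nucleus was thinned to 1000 UMIs, a Dop3 UMI was found in 74% of the PLCe-high nuclei (71.2 to 76.7, exact binomial interval), 17.4% of the other nSyb and 13.4% of the glia-marker nuclei of BRC. In ddH2O the shares were 61.8% (58.7 to 64.8), 31.9% and 19.1%. Without thinning, BRC gave 84.5%, 27.7% and 24.4%, and ddH2O gave 88.9%, 63.0% and 46.5%. The other nSyb nuclei of BRC thus lay near the glia-marker level, and the PLCe-high nuclei lay far above it in each library. The study reports Dop3 mainly in Kenyon cells, cortex glia and olfactory projection neurons. The glia-marker level of Dop3 need therefore not be background.

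The D1-like receptors, which raise cyclic AMP, were also higher. Dop1 was at 616 against 94.0 CPM in BRC and 559 against 215 CPM in ddH2O, log2 ratios of 2.71 (2.62 to 2.81) and 1.38 (1.31 to 1.45). DopR2 was at 280 against 70.4 CPM and 337 against 166 CPM, log2 ratios of 1.99 (1.86 to 2.12) and 1.02 (0.93 to 1.11). The DopR2 ratio in ddH2O lay at the 2-fold line, and it was 0.99 once nuclei scored as doublets were removed and 0.89 in nuclei of 1500 to 4000 UMIs.

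Dopamine receptors of more than 1 kind were found in the same nuclei. At 1000 UMIs per nucleus, at least 1 of Dop1, DopR2 and Dop3 had a UMI in 88.8% of the PLCe-high nuclei of BRC and 83.1% of those of ddH2O. The other nSyb nuclei had 28.1% and 50.8%, and the glia-marker nuclei 19% and 35.1%. All 3 were found in 6.7% and 6.3% of the PLCe-high nuclei, in 1.16% and 1.54% of the other nSyb nuclei and in 0.1% and 0.7% of the glia-marker nuclei. A nucleus can hold RNA of a gene and give no UMI of it, and free RNA can give a UMI to a nucleus that does not express the gene.

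Serotonin and tyramine receptors divided. 5-HT1, a serotonin receptor of the type that lowers cyclic AMP, was at 1823 against 255 CPM in BRC and 1151 against 545 CPM in ddH2O, log2 ratios of 2.84 (2.78 to 2.89) and 1.08 (1.03 to 1.13). Its ddH2O ratio was 0.97 when nuclei were thinned before summing and 0.96 in nuclei of 1500 to 4000 UMIs, just under 2-fold. TyrR, a tyramine receptor, was 2-fold higher in BRC only, at 860 against 159 CPM (log2 2.43), with 848 against 526 CPM in ddH2O (log2 0.69). 5-ht7, a serotonin receptor of the type that raises cyclic AMP, was at 240 against 190 CPM in BRC and 158 against 329 CPM in ddH2O (log2 0.34 and -1.05). The BRC value of 5-ht7 changed sign, to -0.11, under the further filters on nuclei of the study. Oa1, an octopamine receptor, was at 16.4 CPM in the PLCe-high nuclei of BRC and 38.8 in those of ddH2O, too low to be compared.

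Tk, which encodes tachykinin-related neuropeptides, was at 934 against 134 CPM in BRC and 785 against 330 CPM in ddH2O, log2 ratios of 2.80 (2.73 to 2.88) and 1.25 (1.19 to 1.31). It had a UMI in 52.7% and 53.0% of the PLCe-high nuclei at 1000 UMIs each, against 4.1% and 22.6% of the glia-marker nuclei. When nSyb nuclei were ranked by Tk in place of PLCe, 330 of the BRC and 201 of the ddH2O PLCe-high nuclei stood among the first 1000, which were 9.05% and 5.05% of all nSyb nuclei.

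**Figure D3:**
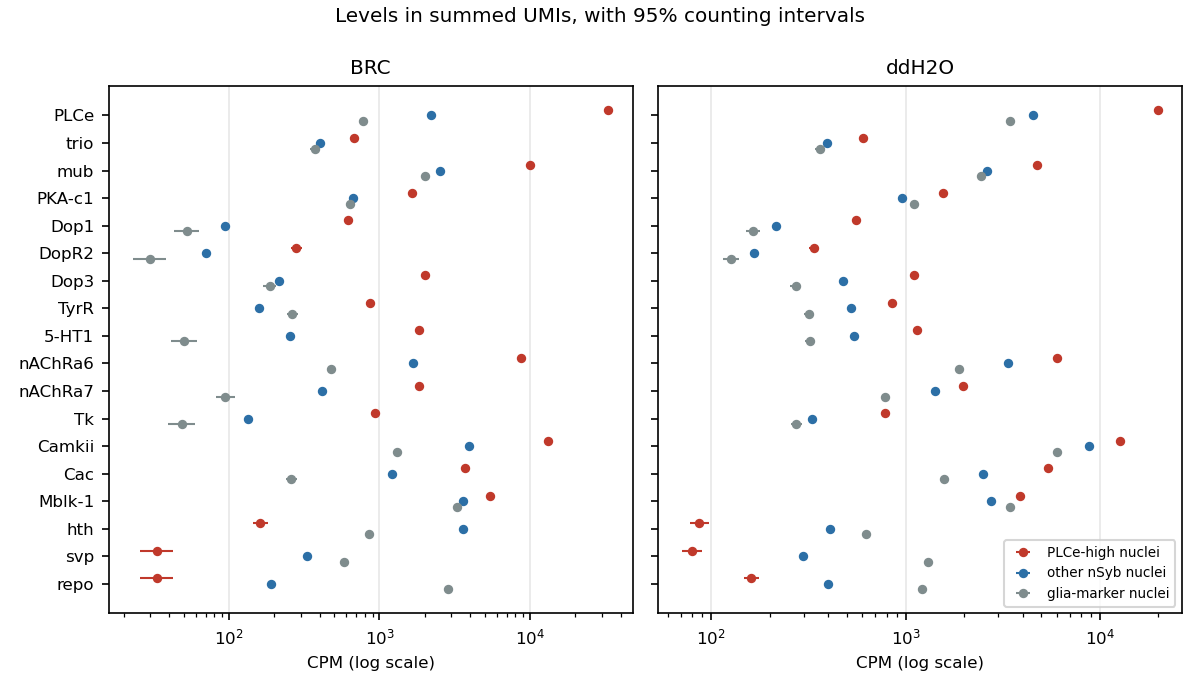
Level of 18 genes in CPM (x axis, log scale) in the summed PLCe-high (red), other nSyb (blue) and glia-marker nuclei (grey) of BRC (left) and ddH2O (right), with 95% counting intervals. The amine receptors and Tk are highest in the PLCe-high nuclei of each library, hth, svp and repo are lowest there, and the grey points lie closer to the blue ones in ddH2O for most neuronal genes.

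The voltage-gated channels Cac and Para were higher in the PLCe-high nuclei of each library, and over all nuclei by less in ddH2O. Cac, the pore-forming subunit of a presynaptic calcium channel, was at 3689 against 1217 CPM in BRC and 5385 against 2516 CPM in ddH2O (log2 1.60 and 1.10). In nuclei of 1500 to 4000 UMIs these ratios were 0.92 and 0.97, so for Cac the smaller ratio in ddH2O did not hold there. Para, the voltage-gated sodium channel, was at 3095 against 989 CPM and 3867 against 3202 CPM (log2 1.65 and 0.27).

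Of 5 nicotinic acetylcholine receptor subunits compared, none was 2-fold higher in both libraries, beside 2.06% of all compared genes. The subunits differed among themselves. nAChRa6 was at 8774 CPM in the PLCe-high, 1668 in the other nSyb and 475 in the glia-marker nuclei of BRC and at 5983, 3378 and 1891 CPM in ddH2O (log2 of PLCe-high to other nSyb nuclei 2.40 and 0.82). nAChRa7 was at 1837 against 415 CPM and 1974 against 1411 CPM (log2 2.15 and 0.48). nAChRa4 was not higher, at 494 against 526 CPM in BRC and 633 against 1020 CPM in ddH2O (log2 -0.09 and -0.69). Of 4 inhibitory chloride channel genes compared none was 2-fold apart in both libraries, beside 2.06% higher and 5.06% lower of all compared genes. pHCl, a chloride channel gated by pH, was at 730 against 297 CPM and 882 against 594 CPM (log2 1.30 and 0.57).

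Among calcium and cyclic nucleotide enzymes, Camkii, the calcium/calmodulin-dependent protein kinase II, was at 13266 CPM in the PLCe-high, 3927 in the other nSyb and 1301 in the glia-marker nuclei of BRC and at 12743, 8776 and 5993 CPM in ddH2O (log2 1.76 and 0.54). Pkc, a protein kinase C, had log2 ratios of 0.63 and 0.53. The guanylyl cyclase subunit sGC-alpha1 was at 226 against 55.7 CPM in BRC and 152 against 132 CPM in ddH2O (log2 2.02 and 0.20). For, the cyclic GMP-dependent kinase known from foraging behaviour, was lower in both, at 73.9 against 196 CPM and 99.4 against 228 CPM (log2 -1.41 and -1.20). It was the only one of the 5 cyclic nucleotide genes compared that was 2-fold apart in both libraries. Of all compared genes 5.06% were 2-fold lower in both. For was highest in the glia-marker nuclei, at 436 and 330 CPM.

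None of 8 synapse genes compared was 2-fold apart in both libraries, beside 2.06% higher and 5.06% lower of all compared genes. The list's median log2 ratio was 0.95 in BRC and -0.25 in ddH2O, from sums that give deep nuclei more weight. Per 1000000 UMIs, the median PLCe-high nucleus of BRC had 4876 of the list, against 3662 in the other nSyb nuclei. In ddH2O these medians were 7288 and 8264. The neurexin gene Nrx-1, whose product binds neuroligins across the synapse, was at 1113 against 452 CPM in BRC and 946 against 1055 CPM in ddH2O. The neuroligin genes NLG-3 and NLG-4 had log2 ratios of 1.21 and 0.96 in BRC and of 0.01 and 0.20 in ddH2O. The neuron markers nSyb, Syt1 and fne, of which nSyb was used to choose the nuclei, summed to 4930 against 1999 CPM in BRC and 6706 against 5257 CPM in ddH2O (log2 1.30 and 0.35). The glia-marker nuclei had 531 and 3521 CPM of them. In each library the neuron markers were thus higher in the PLCe-high than in the other nSyb nuclei, and the part of that difference in the ratios of other neuronal genes was not tested.

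Among transcription factors, Mblk-1, known from the large-type Kenyon cells of the bee, was at 5394 CPM in the PLCe-high, 3612 in the other nSyb and 3253 in the glia-marker nuclei of BRC. In ddH2O it was at 3889, 2750 and 3439 CPM, so that the log2 ratios of PLCe-high to other nSyb nuclei were 0.58 (0.55 to 0.61) and 0.50 (0.47 to 0.53). Mblk-1 therefore set the PLCe-high nuclei apart far less than the receptors did, and in ddH2O the glia-marker nuclei had nearly as much. Foxp, a forkhead factor, was lower, at 74.9 against 503 CPM in BRC and 229 against 676 CPM in ddH2O (log2 -2.75 and -1.56), and it stood at 1974 and 1829 CPM in the glia-marker nuclei. It was the only one of 6 hormone-related and forkhead factors compared that was 2-fold apart in both libraries, beside 5.06% lower of all compared genes. Br-c, the Broad-complex gene of ecdysone signalling, was at 334 against 107 CPM in BRC and 458 against 452 CPM in ddH2O (log2 1.65 and 0.02).

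The 12 genes whose smaller ratio was largest carry LOC identifiers only. LOC725318 (chromosome 14, 6405651 to 6430111) led in BRC among them, at 363 against 29.8 CPM, with 317 against 94.5 CPM in ddH2O (log2 3.61 and 1.74). LOC409970 had the largest ddH2O ratio of the 12, at 176 against 52.1 CPM (log2 1.75), with 146 against 25.2 CPM in BRC (log2 2.54). LOC725164 was at 1159 against 188 CPM and 1475 against 450 CPM (log2 2.62 and 1.71). Over the 12 the ratios lay between 2.54 and 3.61 in BRC and between 1.40 and 1.75 in ddH2O. Of the 6 genes at the other end, hth was named above. LOC408411 was at 15.4 against 189 CPM in BRC and 190 against 826 CPM in ddH2O (log2 -3.62 and -2.12), and LOC410585 at 41.5 against 307 CPM and 42.1 against 173 CPM (log2 -2.89 and -2.04).

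Some of the 53 higher genes were neighbours in the genome. In order of start coordinate there were 4 pairs of consecutive genes, with 7 genes in them. The same count was not made for all compared genes, so it is no measure of clustering. LOC412299 (ending at 11966190) and LOC113218923 (starting at 11966446) on chromosome 8 also lie close but were not consecutive in that order. LOC724852 ends 1106 bp before the long non-coding RNA gene LOC102654200 on chromosome 2 (15341089 to 15349439 and 15350546 to 15391275), and LOC102654776 ends 178 bp before LOC102654860 on chromosome 6. LOC725557, LOC113218974 and LOC409000 on chromosome 9 follow each other, and LOC725557 and LOC409000 each overlap the long non-coding LOC113218974, so reads there may be divided between genes and their values are uncertain. Long non-coding RNA genes were 7.55% of the 53 higher, 10% of the 130 lower and 3.77% of all 2571 genes. The median gene length was 33286 bp among the higher, 67480 bp among the lower and 12796 bp among all compared genes.

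Genes that marked the PLCe-high nuclei also changed along the ranking, with no step at the last of them. Dop3 was at 2232 CPM in BRC ranks 1 to 500, 1758 in ranks 501 to 1000, 1290 in ranks 1001 to 1500 and 972 in ranks 1501 to 2000. In ddH2O the same ranks gave 1201, 1003, 943 and 849 CPM. mub went from 10840 to 9181, 8529 and 7635 CPM in BRC and from 4987 to 4488, 4128 and 3973 CPM in ddH2O. Tk did not follow the ranking within the group, at 929 and 939 CPM in BRC and 791 and 779 CPM in ddH2O for ranks 1 to 500 and 501 to 1000. hth went the opposite way, from 139 CPM in BRC ranks 1 to 500 to 426 in ranks 1501 to 2000 and 1115 in ranks 2501 to 3000.

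**Figure D4:**
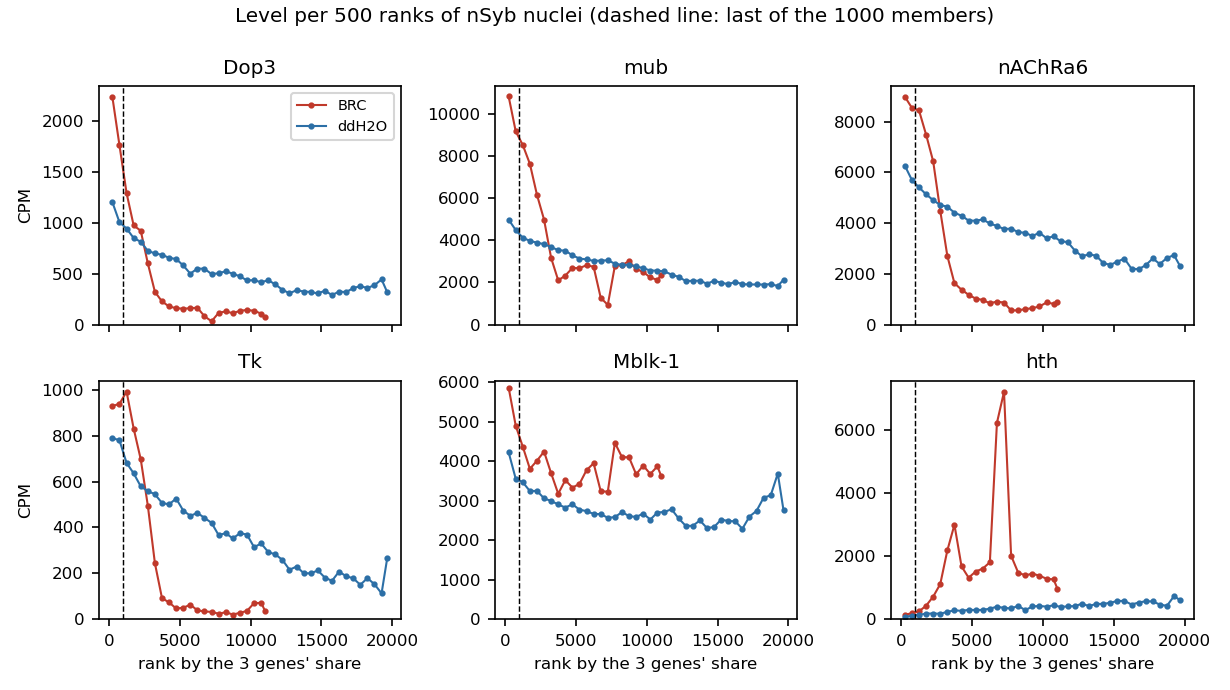
Level in CPM (y axis) of Dop3, mub, nAChRa6, Tk, Mblk-1 and hth per 500 nSyb nuclei in order of rank (x axis), in BRC (red) and ddH2O (blue), with the last PLCe-high nucleus as a dashed line. Dop3 goes from 2232 to 1758 and 1290 CPM over the first 3 bins of BRC, and no curve has a step at the dashed line.

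The PLCe-high nuclei varied among themselves. Over 1396 genes with at least 0.1 UMI per nucleus at 1000 UMIs each, the variance over nuclei divided by the mean had a median of 1.08 in BRC and 1.04 in ddH2O, and independent counting alone gives a value near 1. Among the genes named for their variability, LOC408715 had ratios of 2.42 in BRC and 3.16 in ddH2O, and LOC107966102 had 3.55 and 2.12. LOC100578314 had 4.09 and 1.92, and its counts ran from 0 to 24 and from 0 to 11 UMIs per nucleus, with 28% and 29.9% of nuclei at 0. Mblk-1 had 2.11 and 1.80, with a median of 5 UMIs (0 to 20) in BRC and 3 (0 to 22) in ddH2O. Ancr-1, a nuclear non-coding RNA known from bee brains, had 3.31 and 1.91. Dop3 had 1.92 and 1.31, and trio 1.10 and 0.96.

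Nuclei with many and with few UMIs of Mblk-1 and of LOC100578314 were set side by side, all counted after thinning to 1000 UMIs per nucleus. These groups were chosen after the values were seen and are description only. In nuclei with at least 8 Mblk-1 UMIs (238 in BRC, 95 in ddH2O) nAChRa4 was at 214 and 421 CPM, and in nuclei with at most 1 (134 and 183) it was at 1642 and 934 CPM, log2 ratios of -2.94 (-3.41 to -2.49) and -1.15 (-1.68 to -0.65). Dop3 was at 2450 against 1201 CPM and 1474 against 1055 CPM in the same nuclei (log2 1.03 and 0.48). mub hardly differed between them, at log2 0.16 and 0.03. In nuclei with at least 3 UMIs of LOC100578314 (431 and 231) against those with none (280 and 299), nAChRa4 was at 253 against 1050 CPM in BRC and 433 against 829 CPM in ddH2O, while Mblk-1 had log2 ratios of only 0.11 and 0.19. Before thinning, the nuclei rich in these genes were slightly deeper. Medians in BRC were 1837 against 1614.5 UMIs for Mblk-1 and 1801 against 1684.5 for LOC100578314. The part of that depth and of position in the ranking in the differences between these nuclei was not tested.

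Between conditions, 2888 genes could be compared in the PLCe-high nuclei. Of these 101 (3.5%) were at least 2-fold higher and 231 (8%) at least 2-fold lower in BRC than in ddH2O. The median log2 ratio was -0.19, against -0.19 in the other nSyb and -0.15 in the glia-marker nuclei, and ratios below are to be read against that shift. With median-of-ratios scaling, which removes it, 152 were higher and 142 lower. The comparison has 1 library on each side, so depth, the boundary of the group and background RNA differ together with the treatment.

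Dop3 was at 2000.2 CPM in the PLCe-high nuclei of BRC and at 1102 in those of ddH2O, a log2 ratio of 0.86 (0.80 to 0.93). In the other nSyb nuclei it was lower in BRC, at 214 against 474 CPM (log2 -1.15), as it was in the glia-marker nuclei, at 186 against 272 CPM (log2 -0.55). The value was 1.05 with median-of-ratios scaling, 0.63 for the first 2000 nuclei of each library and 1.01 in nuclei of 1500 to 4000 UMIs. Dop3 fell along the ranking in each library, and the part of the different boundaries was not tested. The other nSyb nuclei were not alike either, with a median ranking share of 0.03% in BRC and 0.39% in ddH2O. The part of that in the ratio of -1.15 was not tested. In ddH2O the deeper PLCe-high nuclei had more Dop3 than the shallower ones, at 1180 against 988 CPM.

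The other amine receptors and Tk gave smaller values. 5-HT1 had a log2 ratio of BRC to ddH2O of 0.66 (0.60 to 0.73), Dop1 of 0.14 (0.04 to 0.25), TyrR of 0.02 (-0.07 to 0.11), DopR2 of -0.27 (-0.42 to -0.12) and Tk of 0.25 (0.16 to 0.34). DopR2 changed sign, to 0.01, in the first 2000 nuclei. mub was 2-fold higher in BRC, at 10030 against 4736 CPM (log2 1.08, 1.05 to 1.11), with -0.05 in the other nSyb and -0.28 in the glia-marker nuclei. trio and PKA-c1 had 0.17 and 0.08. Mblk-1 was higher in BRC in the PLCe-high and the other nSyb nuclei alike (log2 0.47 and 0.39). Camkii had 0.06, nAChRa6 0.55, Para -0.32 and Cac -0.55.

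The genes with the largest ratios were not particular to the PLCe-high nuclei. LOC408807 had 525 UMIs in BRC and 1 in ddH2O, so that its log2 ratio was 9.82 (7.33 to 15.12), beside 8.79 in the other nSyb and 9.96 in the glia-marker nuclei. The royal jelly protein gene Mrjp6, which is expressed in the hypopharyngeal glands, had 8.29, 8.06 and 7.45 in the same groups, and the long-wavelength opsin gene Lop1, expressed in the eyes, had 6.79, 6.68 and 6.49. Of 8 gland genes compared, 7 were at least 2-fold higher in BRC, beside 3.5% of all genes compared between conditions. The 10 gland genes summed to 8406 CPM in the PLCe-high, 9936 in the other nSyb and 7880 in the glia-marker nuclei of BRC, and to 810, 810 and 865 CPM in ddH2O. The photoreceptor markers summed to 1134, 2031 and 1224 CPM in BRC and to 21.5, 37.0 and 56.2 CPM in ddH2O, so UMIs of both lists were found in all 3 groups of nuclei.

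Other genes had unlike values in the 3 groups of nuclei. LOC726401, one of the 12 genes above, was at 1677 CPM in BRC and 680 in ddH2O (log2 1.30, 1.23 to 1.38), beside -0.40 in the other nSyb and -1.42 in the glia-marker nuclei. LOC113218868 was at 200 and 85.4 CPM (log2 1.23, 1.00 to 1.45), beside 0.17 and 0.04. On the other side, LOC408411 was at 15.4 CPM in BRC and 190 in ddH2O (log2 -3.62, -4.20 to -3.09), beside -2.13 and -0.90. Fabp, a fatty acid-binding protein gene, was lower in all groups, at 56.9 against 329 CPM in the PLCe-high nuclei (log2 -2.53), with -2.60 in the other nSyb and -2.15 in the glia-marker nuclei. These differences between groups of nuclei were not tested.

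**Figure D5:**
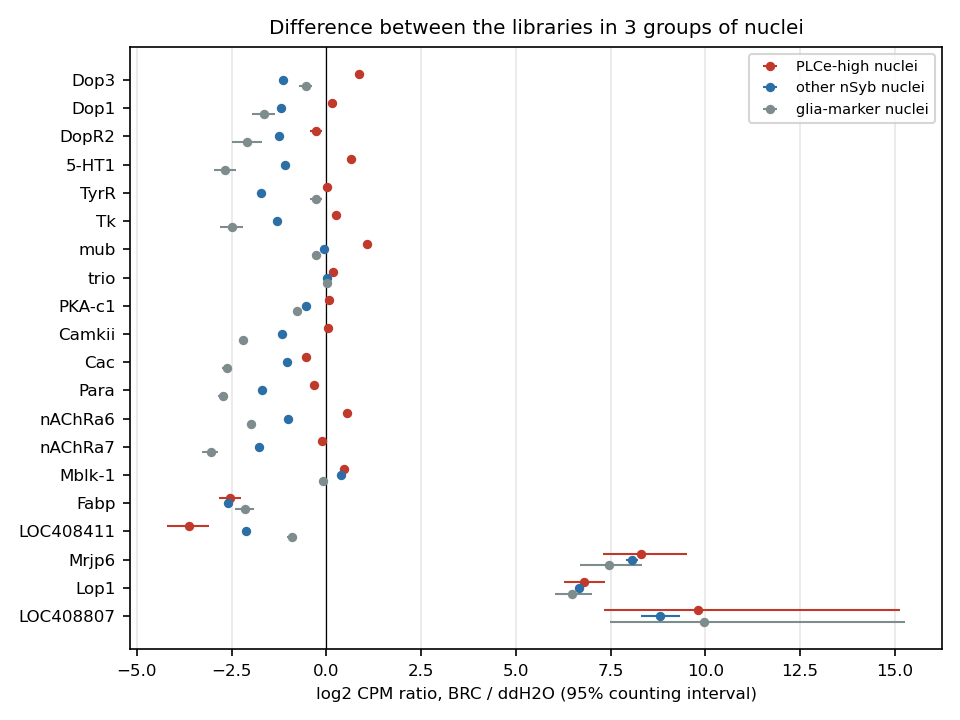
Log2 CPM ratio of BRC to ddH2O (x axis, with 95% counting intervals) of 20 genes in the PLCe-high (red), other nSyb (blue) and glia-marker nuclei (grey). Dop3 is at 0.86 in the PLCe-high and -1.15 in the other nSyb nuclei, while Mrjp6, Lop1 and LOC408807 are above 6 in all 3 groups.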

How the data were processed

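The authors counted UMIs per gene and barcode with Cell Ranger against Amel_HAv3.1 and deposited 1 matrix of raw counts per library, without normalization. The file headers name Cell Ranger 7.2.0 for BRC and 7.0.1 for ddH2O, and the submitters' processing notes list Cell Ranger 7.0.1, Seurat 5.1.0 and R 4.4.0. The matrices list 12635 features for BRC and 12245 for ddH2O. The 12245 genes listed for both were used, with mitochondrial locus tags paired through RefSeq (Amel_HAv3.1), which also gave coordinates. No batch is named for the samples.

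Members and gene lists were chosen with earlier results of these data known. UMIs were summed per group of nuclei and scaled to 1e+06. Levels have exact Poisson intervals, ratios exact conditional intervals and shares Clopper-Pearson intervals, all at 95% and for counting error only. Genes were compared where the mean of the compared groups was at least 50 CPM, and a 2-fold difference was used without a test, since nuclei are not replicates. Shares per nucleus used random thinning to 1000 UMIs, below the depth of every nucleus (1142 UMIs or more). Doublets were kept. In an alternative, 3182 of 19945 BRC and 3200 of 19999 ddH2O barcodes were removed by a score after Scrublet, at a rate of 0.8% per 1000 nuclei. Scripts ran in Python 3.11.15 (numpy 2.4.6, scipy 1.17.1, pandas 2.3.3, scikit-learn 1.9.0, matplotlib 3.10.9) and were tested on simulated data.

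Named genes are the markers and ranking genes, list members with at least 100 UMIs over the members of both libraries, the 12 highest and 6 lowest against the other nSyb nuclei by the smaller ratio, the 10 highest and 10 lowest between conditions found in over 10% of members, and the 8 most variable, from which the text gives a choice made after their values were seen. Alternatives concerned filters, doublets, number of nuclei, ranking genes, thinning, scaling and the CPM minimum. Leaving out shared barcodes and keeping only nuclei of 1500 to 4000 UMIs were chosen after seeing the data.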

Additional observations from a re-analysis of the deposited data

Results flagged for a closer look

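Several genes stood apart from the other nSyb nuclei in opposite directions in the libraries, which flagged them; the differences between libraries were not tested. LOC408715 had a log2 ratio of PLCe-high to other nSyb nuclei of 0.245 in BRC and -1.541 in ddH2O. Nmdar1, an NMDA-type glutamate receptor subunit, had 0.98 and -0.387. Dscam, a cell adhesion molecule with many isoforms, had 0.941 and -0.379. 5-ht7 had 0.337 and -1.054. nAChRa1 had 0.279 and -0.642. Stg-1, of the stargazin family, had 0.641 and -1.031, from 93 and 189 UMIs in the PLCe-high nuclei. Under the further filters of the study the BRC values of LOC408715, 5-ht7 and nAChRa1 changed sign, to -0.16, -0.11 and -0.18. Neuron markers as a whole had ratios of 1.30 in BRC and 0.35 in ddH2O.

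Dop3 was flagged between groups of nuclei. Its log2 ratio of BRC to ddH2O was 0.861 in the PLCe-high and -1.147 in the other nSyb nuclei, and this difference was not tested. The other nSyb nuclei were unlike between the libraries, with a median share of the 3 ranking genes of 0.03% in BRC and 0.39% in ddH2O. The 2 groups came from the same 2 libraries.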

How the results depend on the processing

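No paired analysis was possible because each condition has 1 library, and leaving out a replicate was not possible for the same reason. Of the main results, the Kenyon marker ratio of each library and the Dop3 ratio between conditions kept their direction. The other main results are counts of genes, which have no direction. Among single genes below 2-fold, 5-ht7 (0.34), nAChRa1 (0.28) and LOC408715 (0.24) against the other nSyb nuclei of BRC were -0.11, -0.18 and -0.16 with the study's filters, which kept the sign of 85 of 90 such ratios. Ranking without PLCe kept that of 39 of 44 ratios between conditions, and 2000 nuclei that of 41. The Kenyon marker ratio in BRC (1.78) was 1.46 with the study's filters (over 0.85 for log10 genes per log10 UMIs, under 5% mitochondrial) and 1.46 when ranked without PLCe, 1.82 without doublets, 1.81 for 500 and 1.80 for 2000 nuclei, 2.05 without the nSyb requirement, 1.43 thinned before summing, 1.82 without ranking genes in the total, 2.21 against the other nSyb nuclei below their median rank and 1.38 in nuclei of 1500 to 4000 UMIs. In ddH2O (0.80) it was 0.77 without doublets, 0.85 for 500 and 0.73 for 2000 nuclei, 0.46 without PLCe, 0.74 ranked after thinning, 0.76 thinned before summing, 0.82 without ranking genes in the total, 1.10 against nuclei below the median rank and 0.74 in nuclei of 1500 to 4000 UMIs. The 53 higher genes became 15 without PLCe and 102 against nuclei below the median rank. The 130 lower became 25 without PLCe, 249 at a minimum of 20 CPM and 35 at 200 CPM. The 101 genes higher in BRC became 152 with median-of-ratios scaling, 223 at 20 CPM and 35 at 200 CPM, and the 231 lower became 142, 453 and 50. Dop3 between conditions (0.86) was 0.63 for 2000 nuclei, 1.05 with median-of-ratios scaling and 1.01 in nuclei of 1500 to 4000 UMIs. Causes were not tested. Ranking without PLCe shared 43.5% of PLCe-high nuclei in BRC and 24.3% in ddH2O.

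The alternatives covered 90 ratios against the other nSyb nuclei, for a choice of genes made for the text and not all named genes. All 59 of these ratios that were at least 2-fold kept their direction under each alternative. Of them 44 stayed 2-fold without PLCe, 55 when thinned before summing and 47 in nuclei of 1500 to 4000 UMIs. With 1000 nuclei of 1760 UMIs at the median, genes at a few CPM have wide intervals in BRC.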

Other observations

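Enzymes of sugar metabolism were scarce in the PLCe-high nuclei. Of 11 such genes in the study's list, 1 was abundant enough to be compared, OGDC of the citric acid cycle, at 118 against 152 CPM in BRC and 137 against 128 CPM in ddH2O. HK, the hexokinase gene, was at 22.1 CPM in the PLCe-high, 57.2 in the other nSyb and 239 in the glia-marker nuclei of BRC and at 36.7, 66.8 and 183 CPM in ddH2O. The whole list summed to 324, 511 and 924 CPM in BRC and 395, 464 and 702 CPM in ddH2O.

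Glurb, a glutamate receptor gene, was at 127 against 272 CPM in BRC and 368 against 683 CPM in ddH2O, and the 3 genes found summed to 307 against 388 CPM and 652 against 1076 CPM.

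Transporters that load transmitters into vesicles were at low levels. VAChT, for acetylcholine, was at 109 against 41.8 CPM in BRC and 164 against 134 CPM in ddH2O. Vmat, for monoamines, was at 43.6 against 494 CPM and 28.4 against 66.8 CPM, and in nuclei of 1500 to 4000 UMIs its log2 ratios were -0.65 and -0.74 in place of -3.50 and -1.24.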
